A study of Drosophila melanogaster with 12 samples.

Results

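The nuclear genes for the 5 complexes of the mitochondrial respiratory chain were followed in ph505 tumours and in metamorphed ph505 cells of Drosophila. Members were all genes of the expression table with a FlyBase symbol that starts with ND- (complex I), Sdh (complex II), UQCR- (complex III), COX (complex IV) or ATPsyn (complex V). This rule used names and no measured values, but it was chosen with earlier results of these data known. It found 88 of 17521 genes, of which 40 belonged to complex I, 8 to complex II, 9 to complex III, 16 to complex IV and 15 to complex V. RNA had been sequenced from 12 samples in 5 groups. Metamorphed ph505 cells were taken from adult flies (3 samples) and are described as non-tumorigenic. Transplanted ph505 tumours had gone through 4, 8 or 14 weekly passages in the abdomen of adult w1118 females (2 samples each). Wild-type eye discs from late in the third larval instar served as control (3 samples), and these had also been placed in an adult abdomen, for 1 day. The ph505 allele removes the function of ph-p and ph-d, which encode Polyhomeotic, a protein of the Polycomb repressive complex PRC1. The mutant clones carried GFP and were made with ey-flp, a recombinase that is also active in leg and genital discs, so that GFP-marked cells of the adult lie in many parts of the body. No wild-type adult cells were among the samples. According to the study's methods, the RNA samples of a group were collected independently. How many animals went into each one is not given in the sources used here. Nor is it given whether tumours of different ages came from the same transplanted line. The tests treated all tumours as independent samples.

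Oxidative phosphorylation turns the energy of nutrients into ATP at the inner mitochondrial membrane. Complex I takes electrons from NADH, and complex II, which is also an enzyme of the citric acid cycle, takes them from succinate. Complex III hands them to cytochrome c and complex IV to oxygen, while complexes I, III and IV pump protons whose return drives complex V, the ATP synthase. All complexes except II combine nuclear subunits with subunits of the mitochondrial genome. The mitochondrially encoded genes were not analysed here. Levels are given as CPM, the reads on a gene relative to the scaled size of its library, and fold changes as log2 differences of CPM + 1.

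Read totals on genes ranged between 2072498 in the first control and 81447816 in the second metamorphed sample. For the tested subunits depth was no limit, since the least covered one still had 48 reads in the shallowest library. The second 14-week tumour stood apart from the other tumours. Its scaling factor was 0.611, against 0.848 to 1.24 in the other 11 libraries, and it held the highest value of the 6 tumours for 52 of the 65 members tested. The main counts over all members, the rises of ND-AGGG and UQCR-Q and some levels per kilobase are therefore also given without this tumour. Counts by complex or length and the log2 fold changes of other leading genes are given only with it. With each of the 12 samples left out in turn, those in tumours against control were 1.80 to 2.48 for SdhC, 1.97 to 2.63 for COX5A and 2.09 to 2.57 for ATPsynD. The transcripts of ph-p (73.5 to 164 CPM) and ph-d (43.9 to 132 CPM) in tumours overlapped those in control (53.3 to 84.4 and 58.5 to 81.5 CPM). In metamorphed cells ph-p (206 to 223 CPM) was above all tumours and controls, and ph-d (90.2 to 142 CPM) above all controls. Transcript levels of ph-p and ph-d therefore do not check the genotype labels. Metamorphed libraries came from another sequencing instrument than all others, and for metamorphed cells instrument and group cannot be told apart.

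Of the 88 members, 65 reached 1 CPM in at least 2 samples and entered the test. These were 60 subunits (32 of complex I, 4 of II, 5 of III, 8 of IV and 11 of V), the assembly factor Sdhaf3 and 4 paralogs, which are named with a final L as copies of a subunit gene. The other 23 were 20 paralogs and the subunits ND-B8, ND-MNLL and UQCR-14. Of all 88, 18 had at most 3 reads in each library, and 11 of these had no read in any. ND-MNLL shares all its exon bases with CG45089 on the same strand, and UQCR-14 all of its exon bases with CG32576 on the opposite strand, so that a counter may have left out reads on either. In 31 of the 65 tested members some exon bases are shared with another gene, and in 4 of them (ND-B22, ND-MWFE, UQCR-6.4 and ATPsyndelta) more than 20% are. The strand setting of the counter is not given in the sources used here, so reads of such members and their neighbours may not be told apart. UQCR-6.4 has the largest shared part, with 40.5% of its exon bases opposite POSH.

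Respiratory chain genes were higher in tumours than in control. Of the 65 members, 51 rose and 0 fell (limma with Benjamini-Hochberg adjustment over all genes, threshold 0.05). Over all 10177 genes tested, 14.4% rose and 21.6% fell. The median log2 fold change of the members was 1.66, whereas that of all genes was -0.19. At an unadjusted p under 0.05 still 0 members fell, and with limma-voom on reads 0 fell as well. All 6 tumours lay above all 3 controls for 47 of the 65 members, against 12.2% of all genes. Together the members took 1.43 to 3.39% of the reads on genes in tumours and 0.827 to 1.07% in control. Without the second 14-week tumour 48 members rose, with a median of 1.34.

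In metamorphed cells the members were higher than in control as well. Here 44 of 65 rose and 0 fell, while 21.6% of all genes rose and 19.0% fell. The members had a median log2 fold change of 1.51, and all genes one of -0.03. Again 0 members fell at an unadjusted p under 0.05, whereas limma-voom on reads called 1 as lower, the paralog COX7AL. All 3 metamorphed samples lay above all 3 controls for 54 of the 65 members, against 27.3% of all genes. Both the 44 and the 54 include the paralog SdhBL, which entered the test only through the metamorphed libraries. The members took 1.53 to 2.10% of the reads in metamorphed cells. Both comparisons use the same 3 controls, so they are not independent of each other.

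**Figure D1:**
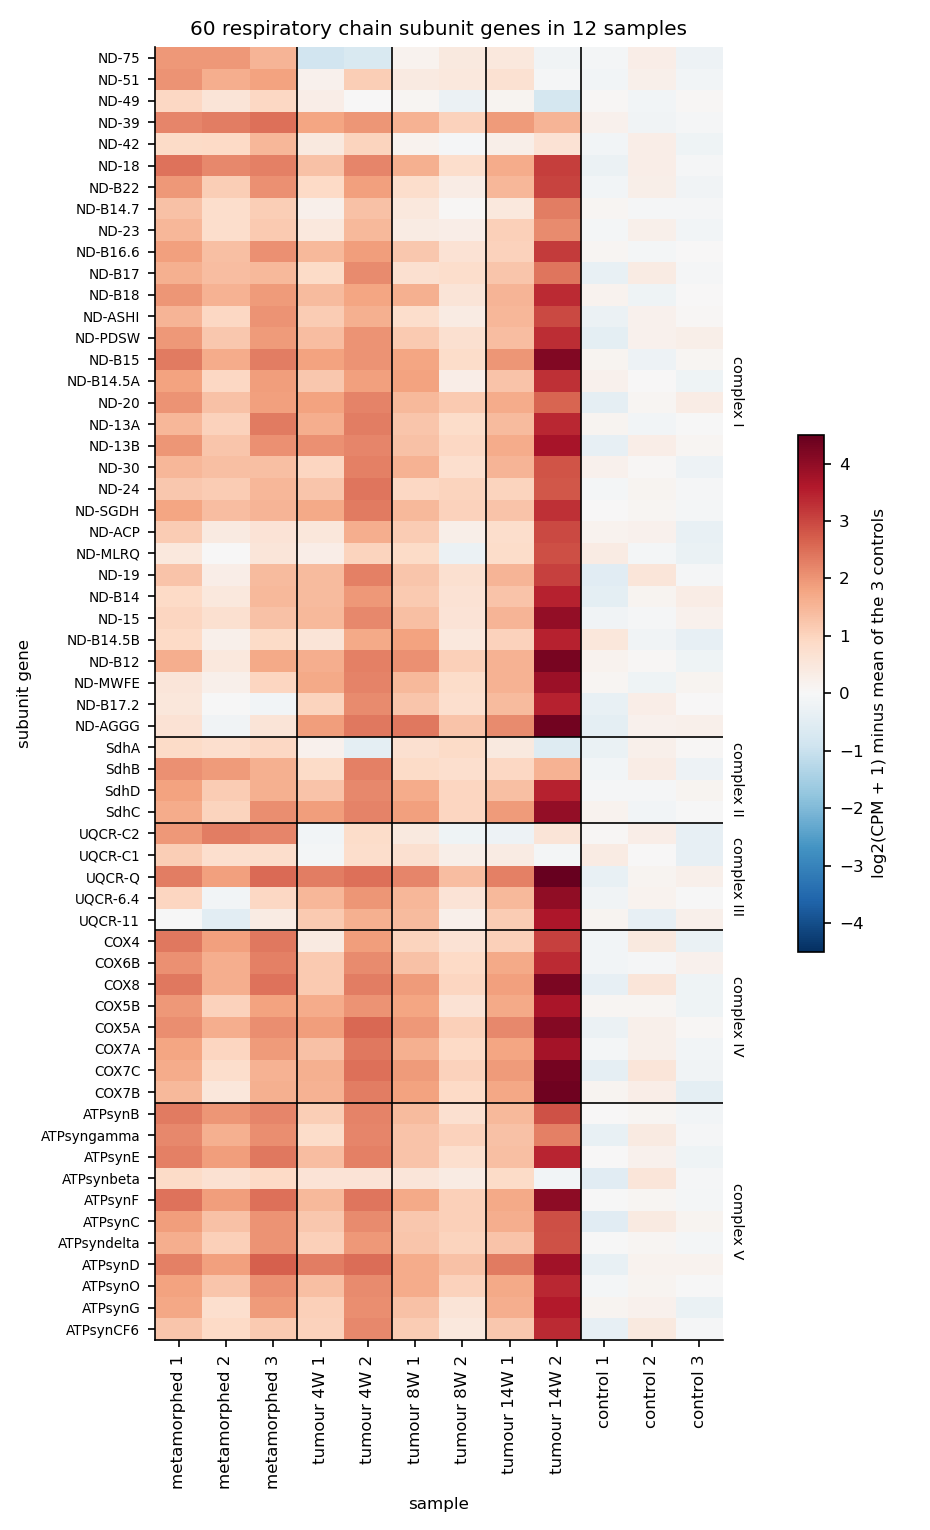
Levels of the 60 tested subunit genes (vertical axis, grouped by complex) in the 12 samples (horizontal axis), as log2(CPM + 1) minus the mean of the 3 controls, with red for higher and blue for lower. Nearly all subunits are red in metamorphed cells and tumours, the second 14-week tumour is the darkest column, and ND-75, ND-51 and UQCR-C2 are red in metamorphed cells and pale or pale blue in most tumours.

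Metamorphed cells and tumours differed in single subunits of complexes I and III. Against tumours, 7 of 65 members were higher and 6 lower in metamorphed cells, while 28.5% of all genes were higher and 18.0% lower. The median log2 fold change was -0.08, beside 0.11 over all genes. The higher members were ND-39, ND-42, ND-49, ND-51, ND-75 and UQCR-C2, besides the paralog SdhBL, which reached 1 CPM in the 3 metamorphed libraries alone, entered the test through them and so had to differ. It is also among the members counted as higher in metamorphed cells against control. ND-AGGG, ND-B17.2, ND-MWFE, UQCR-11, UQCR-6.4 and Sdhaf3 were the 6 lower ones. Both counts depended on single tumours. Without the second 14-week tumour 11 were higher and 5 lower, and without the first 14-week tumour 7 were higher and 21 lower. With the second metamorphed sample left out the lower ones numbered 3. Of the 7 higher calls, those of ND-49, ND-51, ND-75 and UQCR-C2 held in each of the 12 fits with 1 sample left out, and of the 6 lower calls 3 did. SdhBL also kept its call in each fit, but the filter had fixed this in advance, so it carries no weight.

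Complex I, the NADH dehydrogenase, had 32 tested subunits. In tumours 26 of them rose and in metamorphed cells 21, with median log2 fold changes of 1.64 and 1.44. The largest rise in tumours was that of ND-AGGG (3L, 24976254 to 24977118, dm6), a small accessory subunit of the membrane arm. It had 203 and 290 CPM in 4-week, 287 and 133 in 8-week and 242 and 1128 in 14-week tumours, against 40.4, 62.8 and 64.5 CPM in control. Every tumour was above every control. The log2 fold change was 2.39 ± 0.43 (SE, adjusted p = 0.000883), and 2.02 without the second 14-week tumour. In metamorphed cells ND-AGGG had 86.0, 48.7 and 81.6 CPM, which overlaps the controls (log2 fold change 0.35 ± 0.49, adjusted p = 0.606) and lies below all tumours (log2 fold change -2.04 ± 0.43 against tumours, adjusted p = 0.00144).

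ND-75 (X, 8248651 to 8251687, dm6), the large iron-sulphur subunit that carries electrons through the matrix arm, showed the opposite order. It reached 310, 308 and 235 CPM in metamorphed cells, 43.3 to 111 CPM in tumours with a median of 80.6, and 75.3, 98.9 and 68.5 CPM in control. Tumours and controls overlapped, and all metamorphed samples were higher than both. Accordingly the log2 fold change was 1.91 ± 0.24 in metamorphed cells against tumours (adjusted p = 2.07e-05) and 1.81 ± 0.28 against control (adjusted p = 0.000176). In tumours against control it was -0.11 ± 0.24 (adjusted p = 0.778). ND-51, the subunit that binds NADH and FMN, had 347, 266 and 298 CPM in metamorphed cells, 80.8 to 182 CPM in tumours and 77.6 to 101 CPM in control. ND-49, which lines the quinone site, had 320, 248 and 315 CPM in metamorphed cells, 96.2 to 203 in tumours and 153 to 172 in control. ND-42, an accessory subunit, had 200, 206 and 309 CPM in metamorphed cells, 107 to 222 CPM in tumours and 97.1 to 136 CPM in control. For ND-42 the metamorphed samples overlapped with tumours, and the log2 fold change between them was 0.66 ± 0.25 (adjusted p = 0.0421), a call that held in only 4 of the 12 fits with 1 sample left out.

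The subunit with the largest rise in metamorphed cells against control was ND-39 (3L, 20492082 to 20497084, dm6), an accessory subunit between the matrix and the membrane arm. It had 716, 759 and 856 CPM in metamorphed cells, between 320 and 614 CPM in tumours and 176, 140 and 150 CPM in control. The 3 groups did not overlap. On the log2 scale ND-39 exceeded control by 2.32 ± 0.26 in metamorphed cells (adjusted p = 1.11e-05) and by 1.63 ± 0.22 in tumours (adjusted p = 0.000112), and metamorphed cells exceeded tumours by 0.69 ± 0.22 (adjusted p = 0.0217). The call between metamorphed cells and tumours held in 9 of the 12 fits with 1 sample left out. The smallest difference to control in metamorphed cells was that of ND-B17.2, an accessory subunit, with 52.8, 35.7 and 33.4 CPM in metamorphed cells, 62.3 to 412 CPM in tumours and 29.0, 44.9 and 37.4 CPM in control. Metamorphed cells and controls overlapped (log2 fold change 0.12 ± 0.47, adjusted p = 0.863), while all tumours were higher than both (1.67 ± 0.41 against control, adjusted p = 0.00666). ND-MWFE, another small accessory subunit, had 46.6, 37.2 and 62.7 CPM in metamorphed cells, 56.6 to 467 CPM in tumours and 33.7, 27.3 and 34.3 CPM in control. Its values were above control in every tumour and in every metamorphed sample, and only in tumours did the rise pass the test (1.94 ± 0.41, adjusted p = 0.00284, against 0.58 ± 0.47 in metamorphed cells, adjusted p = 0.359).

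Complex I has 7 conserved core subunits encoded in the nucleus, most of which carry redox centres or line the quinone site. Here these were ND-75, ND-51, ND-49, ND-30, ND-24, ND-23 and ND-20, and this list was written after the values had been seen. In metamorphed cells 7 of the 7 core subunits and 14 of the 25 accessory ones rose against control, beside 21.6% of all genes. In tumours it was 4 of 7 and 22 of 25, beside 14.4% of all genes. Against tumours, metamorphed cells were higher for 3 of 7 core subunits and lower for 0. Of the 25 accessory ones 2 were higher and 3 lower. Over all genes 28.5% were higher and 18.0% lower, so both accessory counts lay below these shares. With so few core subunits, 3 of 7 cannot be told from the share over all genes. The core transcripts were also longer, with a median of 985 nt against 676 nt for the accessory ones. The length trend of each library was then removed (described further on). Metamorphed cells were higher than tumours for 3 of 7 core and 4 of 25 accessory subunits and lower for 3 accessory ones. Of all genes 25.0% were then higher and 23.5% lower.

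Complex II, succinate dehydrogenase, has 4 subunits and all were tested. SdhA is the flavoprotein that oxidises succinate, SdhB the iron-sulphur protein, and SdhC and SdhD anchor both in the membrane. SdhC (3R, 11208887 to 11209849, dm6) had 540, 340 and 726 CPM in metamorphed cells, 332 to 2618 CPM in tumours with a median of 633, and 185, 153 and 167 CPM in control. Neither metamorphed cells nor tumours overlapped with control. Its log2 fold change was 2.14 ± 0.39 in tumours (adjusted p = 0.00111). Metamorphed cells gave 1.60 ± 0.45 (adjusted p = 0.0128). SdhD ran alongside, with 266, 167 and 231 CPM in metamorphed cells, 150 to 837 CPM in tumours and 72.1 to 82.5 CPM in control, and rose by 1.82 ± 0.39 in tumours (adjusted p = 0.00306). SdhB had 288, 265 and 210 CPM in metamorphed cells, 117 to 338 CPM in tumours and 58.7 to 88.0 CPM in control. It was the complex II subunit with the largest rise in metamorphed cells, by 1.85 ± 0.35 (adjusted p = 0.000932), and rose by 1.2 ± 0.30 in tumours (adjusted p = 0.00823).

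SdhA (2R, 19391863 to 19395971, dm6) had the smallest change of the complex against control. It stood at 397, 374 and 420 CPM in metamorphed cells, 147 to 404 CPM in tumours and 177, 259 and 230 CPM in control. Tumours spread over the whole control range (log2 fold change 0.20 ± 0.27, adjusted p = 0.598), and metamorphed cells were above it (0.85 ± 0.31, adjusted p = 0.0407). That rise is close to the threshold. Leaving out 1 sample at a time, it did not pass in 7 of 12 fits. Nor did it pass without the filter on low values, with a replicate block, without the mean-variance trend, with limma-voom, with quantile normalization or with scaling by total reads (adjusted p between 0.0561 and 0.585). The assembly factor Sdhaf3, which helps to mature the iron-sulphur subunit, had 5.4, 1.9 and 3.7 CPM in metamorphed cells, 8.1 to 61.6 CPM in tumours and 3.1, 8.6 and 7.3 CPM in control. It was lower in metamorphed cells than in tumours (log2 fold change -2.2 ± 0.56, adjusted p = 0.00543), and the groups did not overlap. SdhBL, a paralog of SdhB, had 98, 122 and 81 reads in metamorphed cells, at most 1 read in any tumour and 0, 4 and 0 reads in control. This is a level of only 1.3 to 1.7 CPM in metamorphed cells. Since the gene passed the filter through these libraries alone, no fold change of it is given, and its calls within the counts of members carry no weight.

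Among the 5 tested subunits of complex III, the cytochrome bc1 complex, 3 rose in tumours and 3 in metamorphed cells. UQCR-Q (3L, 17474761 to 17476124, dm6), a small membrane subunit, had the largest rise of all 65 members in tumours. Its levels were 561, 412 and 658 CPM in metamorphed cells, 561 and 632 in 4-week, 522 and 297 in 8-week and 550 and 2620 CPM in 14-week tumours, and 89.8, 122 and 131 CPM in control. There was no overlap with control in either case. The log2 fold change was 2.53 ± 0.40 in tumours (adjusted p = 0.000355, 2.15 without the second 14-week tumour) and 2.23 ± 0.46 in metamorphed cells (adjusted p = 0.0017).

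UQCR-C2 (3L, 16584124 to 16586111, dm6), a core protein of the matrix side, separated metamorphed cells from the rest. It had 498, 626 and 587 CPM in metamorphed cells, 110 to 229 CPM in tumours and 133, 157 and 99.2 CPM in control. Tumours and control overlapped (log2 fold change 0.22 ± 0.29, adjusted p = 0.592), and metamorphed cells were higher by 1.92 ± 0.29 than tumours (adjusted p = 9.66e-05) and by 2.15 ± 0.33 than control (adjusted p = 0.000187). Its partner UQCR-C1 had 1109, 865 and 879 CPM in metamorphed cells, 481 to 890 CPM in tumours and 397 to 652 CPM in control, with a log2 fold change of 0.89 ± 0.32 in metamorphed cells against control (adjusted p = 0.0392), which passed in 5 of the 12 fits with 1 sample left out. UQCR-11, a small accessory subunit, went the other way. It had 191, 136 and 250 CPM in metamorphed cells, 224 to 2381 CPM in tumours and 207, 149 and 226 CPM in control. All controls lay within the range of the metamorphed cells (log2 fold change -0.04 ± 0.52, adjusted p = 0.966), and the tumour with the least, 224 CPM, was within the control range. The difference of -1.57 ± 0.45 between metamorphed cells and tumours (adjusted p = 0.0115) did not pass when the second metamorphed sample was left out (adjusted p = 0.0717). UQCR-6.4, a very small subunit, had 56.3, 26.0 and 54.7 CPM in metamorphed cells, 44.1 to 468 CPM in tumours and 25.5 to 31.8 CPM in control. It was lower in metamorphed cells than in tumours with a log2 fold change of -1.25 ± 0.47 (adjusted p = 0.0416), although the groups overlapped and the call held in only 3 of the 12 fits with 1 sample left out.

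In complex IV, cytochrome c oxidase, 8 of 8 subunits rose in tumours and 6 of 8 in metamorphed cells, with median log2 fold changes of 2.01 and 1.78. These nuclear subunits surround a catalytic core encoded in the mitochondrial genome. COX5A (3R, 11819359 to 11820299, dm6), which faces the matrix, led in tumours. It had 586, 422 and 578 CPM in metamorphed cells, 288 to 2403 CPM in tumours with a median of 567, and 112, 158 and 139 CPM in control, without overlap to control. The log2 fold change was 2.30 ± 0.38 in tumours (adjusted p = 0.000493). Metamorphed cells gave 1.94 ± 0.44 (adjusted p = 0.00306).

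COX4 (2L, 19958713 to 19960065, dm6) led in metamorphed cells and had the smallest rise in tumours. It had 366, 254 and 371 CPM in metamorphed cells, 92.3 and 263 in 4-week, 143 and 112 in 8-week and 150 and 602 CPM in 14-week tumours, and 64.3, 94.6 and 56.8 CPM in control. One 4-week tumour fell inside the control range. The rise was 2.2 ± 0.48 in metamorphed cells (adjusted p = 0.00257) and 1.36 ± 0.42 in tumours (adjusted p = 0.0224), and the rise in tumours did not pass in 4 of the 12 fits with 1 sample left out. COX7B, a small membrane subunit, had 233, 120 and 254 CPM in metamorphed cells, 157 to 1755 CPM in tumours and 91.3, 104 and 62.3 CPM in control. It rose by 2.11 ± 0.48 in tumours (adjusted p = 0.00439). In metamorphed cells its log2 fold change of 1.19 ± 0.55 missed the threshold (adjusted p = 0.104), although no sample overlapped with control. COX7C was similar, with 118, 62.7 and 109 CPM in metamorphed cells, 74.2 to 736 CPM in tumours and 27.0 to 53.2 CPM in control. It rose in tumours by 2.21 ± 0.46 (adjusted p = 0.00267), and its log2 fold change in metamorphed cells was 1.35 ± 0.53 (adjusted p = 0.0592).

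**Figure D2:**
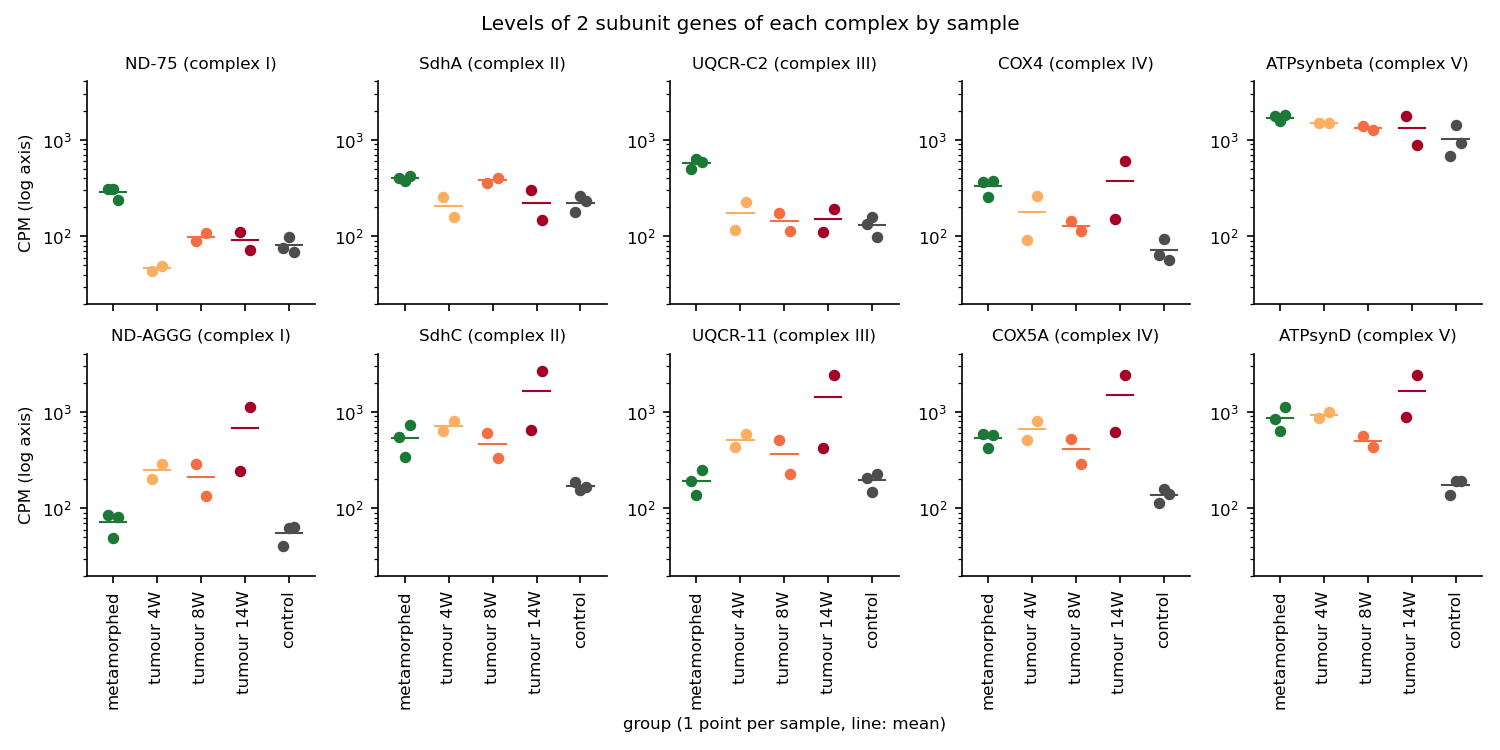
CPM (log axis) of a pair of subunits from each complex in every sample, by group, with a line at the group mean. ND-75 and UQCR-C2 are higher in the 3 metamorphed samples than in all tumours and controls, ND-AGGG is higher in all tumours than in metamorphed cells and controls, and SdhC, COX5A and ATPsynD lie above control in every metamorphed sample and tumour.

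Complex V, the ATP synthase, had 11 tested subunits, of which 10 rose in tumours and 9 in metamorphed cells (median log2 fold changes 1.69 and 1.74). ATPsynD (3R, 19095000 to 19096271, dm6), a subunit of the peripheral stalk, led in both. It had 836, 627 and 1118 CPM in metamorphed cells, 859 and 987 in 4-week, 555 and 436 in 8-week and 875 and 2387 CPM in 14-week tumours, and 137, 193 and 193 CPM in control. No metamorphed sample or tumour overlapped with control. The log2 fold change was 2.33 ± 0.32 in tumours (adjusted p = 0.000115). Metamorphed cells gave 2.27 ± 0.37 (adjusted p = 0.000258). ATPsynB, also of the stalk, had 1160, 899 and 1047 CPM in metamorphed cells, 373 to 1667 CPM in tumours and 229, 243 and 208 CPM in control. It rose by 1.63 ± 0.34 in tumours (adjusted p = 0.00251), and by 2.18 ± 0.39 (adjusted p = 0.000592) in metamorphed cells. ATPsynC, the proton-carrying ring, had the highest CPM of all members, with 3573, 2381 and 3881 in metamorphed cells, 1997 to 7179 in tumours and 679, 1254 and 1032 in control.

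ATPsynbeta (4, 1031484 to 1034917, dm6), the catalytic subunit, was the one subunit of the complex that rose in neither comparison. It had 1742, 1559 and 1784 CPM in metamorphed cells, 877 to 1770 CPM in tumours with a median of 1439, and 684, 1419 and 925 CPM in control. Of its 3 controls 2 were within the tumour range, and the log2 fold change was 0.48 ± 0.30 in tumours (adjusted p = 0.237). Metamorphed cells gave 0.81 ± 0.35 (adjusted p = 0.0816). ATPsynCF6, the coupling factor of the stalk, had 109, 84.3 and 104 CPM in metamorphed cells, 62.8 to 473 CPM in tumours and 34.5, 61.4 and 43.6 CPM in control. It rose in tumours (1.56 ± 0.42, adjusted p = 0.0114). The difference to control was 1.11 ± 0.49 for metamorphed cells (adjusted p = 0.0855).

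The paralogs were close to the detection limit. COX7AL had 0 reads in the 3 metamorphed libraries, 0 to 91 in tumours and 3, 29 and 4 in control. COX7AL2 was seen in 2 metamorphed libraries (66 and 199 reads) and in the first control (4 reads). ATPsynepsilonL had 70, 0 and 98 reads in metamorphed cells, 0 to 82 in tumours and 0, 17 and 4 in control. None of the 3 passed the test in tumours or metamorphed cells against control with limma on CPM. ND-20L, a paralog that did not enter the test, had its 137 reads only in the metamorphed sample number 3. Among bulk samples, fewer cells that express a gene and less RNA per cell cannot be told apart, and this holds for all values here.

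Tumour age was examined next. Against control, 44 of 65 members were higher in 4-week tumours (13.1% of all genes), 5 in 8-week tumours (2.70% of all genes) and 52 in 14-week tumours (11.7% of all genes). All ages share the same controls. Each age has 2 tumours, and single tumours carried these counts. Without the second 4-week tumour 4 members were higher at 4 weeks, against 40 without the first, and without the second 14-week tumour 22 were higher at 14 weeks, against 54 without the first. The age in question is then left with 1 tumour, which is assumed to vary like the other groups. Leaving out the second or the first 14-week tumour gave 24 or 26 at 8 weeks. When each age was fitted with the controls alone, 38, 11 and 3 members were higher at 4, 8 and 14 weeks. The estimate at 8 weeks was the lowest of the 3 ages in 55 members and that at 14 weeks the highest in 52. In the direct comparison of 14-week with 4-week tumours 0 members passed (0.0983% of all genes passed), 2 were higher at an unadjusted p under 0.05 (ND-75 and ATPsynepsilonL), and limma-voom also called 0. The 8-week tumours were not tested against the other ages.

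Named after their values were seen, the 5 members higher at 8 weeks were ND-39, ND-20, ND-AGGG, UQCR-Q and ATPsynD. ND-39 had 527 and 614 CPM in the 4-week, 455 and 320 in the 8-week, and 588 and 449 in the 14-week tumours. Its log2 fold change over control was 1.87, 1.30 and 1.73 at these ages. ND-20, a core subunit of complex I, had 366 and 483 CPM in the 4-week, 282 and 232 in the 8-week, and 330 and 630 in the 14-week tumours, against 76.8 to 129 CPM in control. ND-75 was lowest at 4 weeks (43.3 and 49.4 CPM, log2 fold change -0.78 ± 0.31 against control, adjusted p = 0.0685).

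Medians over the subunits of each complex gave the same picture per sample. For complex IV the median level over control was 2.01, 1.34 and 2.00 on the log2 scale in metamorphed cells, 1.44 and 2.29 in 4-week, 1.79 and 0.90 in 8-week and 1.77 and 3.94 in 14-week tumours, and -0.13, 0.26 and -0.17 in control. In complex I it was 1.53, 0.99 and 1.5 in metamorphed cells, 1.27 and 2.00 in 4-week, 1.25 and 0.69 in 8-week and 1.40 and 3.10 in 14-week tumours, and -0.09 to 0.09 in control. For complex III it was 1.12, 0.76 and 0.92 in metamorphed cells and 0.27 to 3.63 in tumours, with 0.00 to 0.11 in control. Each of the 9 ph505 samples had a median above all controls in every complex. The second metamorphed sample was the lowest of its group throughout, and the second 14-week tumour the highest of all samples.

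**Figure D3:**
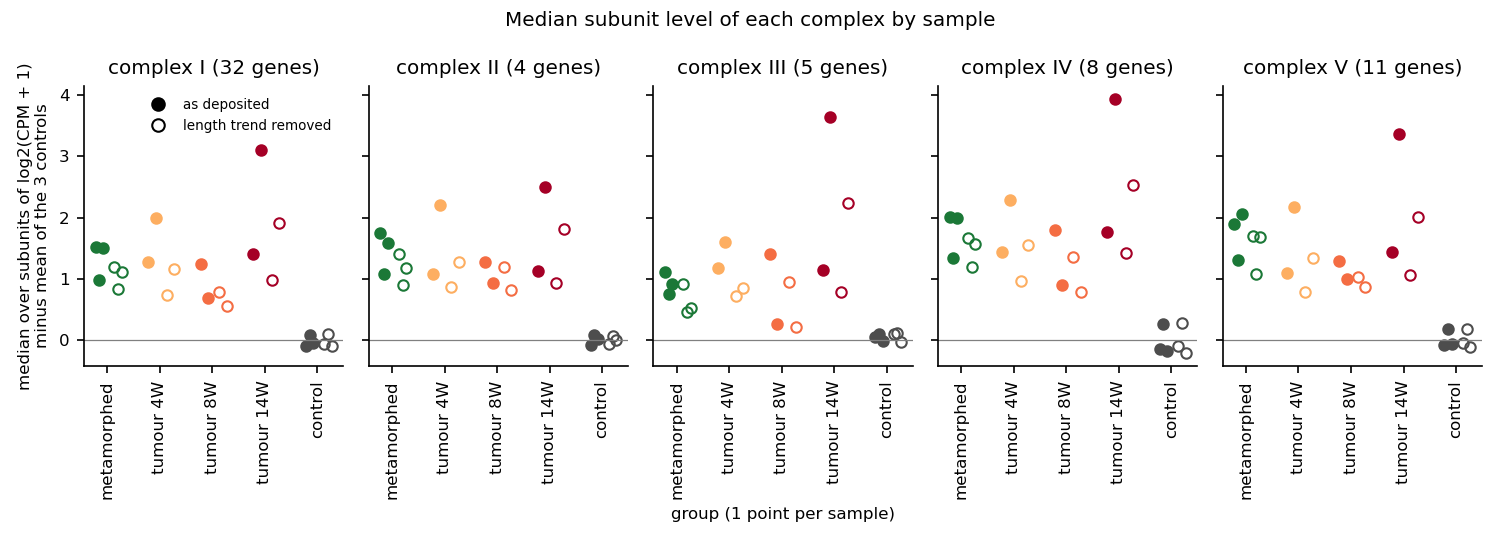
Median over the tested subunits of each complex of log2(CPM + 1) minus the mean of the 3 controls, with 1 point per sample by group, filled as deposited and open after each library's trend with transcript length was removed. All metamorphed and tumour samples are above the controls in every complex. Removing the length trend lowers the second 14-week tumour most in complexes I, III, IV and V, and the second 4-week tumour most in complex II.

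Transcript length moved with these results. The members have short transcripts, with a median of 712 nt, against 1825 nt over all genes tested. In tumours against control, short transcripts tended to be higher than long ones. Spearman's rho between fold change and transcript length was -0.463 over 9888 other genes and -0.482 over the 65 members. The relation was not steady at the short end. Among other genes binned by length, the shortest bin (median 440 nt) had a median log2 fold change of 0.10. The next bin (median 628 nt) had 0.78. In metamorphed cells against control rho was -0.229 over other genes and 0.291 over the members. Between metamorphed cells and tumours it was 0.15 over other genes and 0.676 over the members, and ND-75, UQCR-C2, ND-51, ND-49 and ND-39 are among the longest members, whereas ND-AGGG, UQCR-11, ND-B17.2, ND-MWFE and UQCR-6.4 are short. These correlations are descriptions across genes, which share libraries and are not independent of each other.

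Members were then set beside other genes of like length. Below 700 nt, 28 of 32 members and 270 of 949 other genes rose in tumours, and 14 of 32 members and 220 of 949 other genes rose in metamorphed cells. Between 700 and 1000 nt it was 19 of 20 members and 365 of 1019 other genes in tumours, and 18 of 20 members and 243 of 1019 other genes in metamorphed cells. Between 1000 and 1500 nt it was 3 of 4 members and 454 of 1838 other genes in tumours, and 4 of 4 members and 496 of 1838 other genes in metamorphed cells. Above 1500 nt, 1 of 9 members (ND-39) and 290 of 6082 other genes rose in tumours, and 8 of 9 members and 1153 of 6082 other genes rose in metamorphed cells. The paralog SdhBL, which entered the test only through the metamorphed libraries, is 1 of these 8 members.

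With the length trend of each library removed, 48 members rose in tumours (14.6% of all genes rose), and their median log2 fold change was 1.07. In metamorphed cells 43 rose (22.4% of all genes), with a median of 1.2. ND-23, ND-ACP, ND-B14.5B, Sdhaf3 and COX4 then missed the threshold in tumours, and SdhA (0.85 ± 0.20, adjusted p = 0.00624) and ATPsynbeta (0.77 ± 0.24, adjusted p = 0.0293) passed it. ND-49 and UQCR-C1 missed it in metamorphed cells, where COX7C passed. Against tumours, 15 members were now higher in metamorphed cells and 6 lower, beside 25.0% and 23.5% of all genes. All 13 calls made before were among them, and ND-18, ND-B22, SdhB, COX4, COX6B, COX7AL2, ATPsynB and ATPsynE were added. Of the 15 higher ones, the paralogs SdhBL and COX7AL2 would not have passed the filter without the metamorphed libraries, so their calls carry no weight. COX7AL2 had 66, 0 and 199 reads in metamorphed cells and 0 in every tumour. ND-75 was still 1.33 ± 0.21 higher (adjusted p = 8.81e-05), UQCR-C2 1.67 ± 0.29 higher (adjusted p = 0.000263) and ND-AGGG lower in metamorphed cells than in tumours, with a log2 fold change of -1.71 ± 0.29 (adjusted p = 0.000176). Among members alone rho was 0.518 after this step. What gave rise to the length trend of the libraries was not tested.

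**Figure D4:**
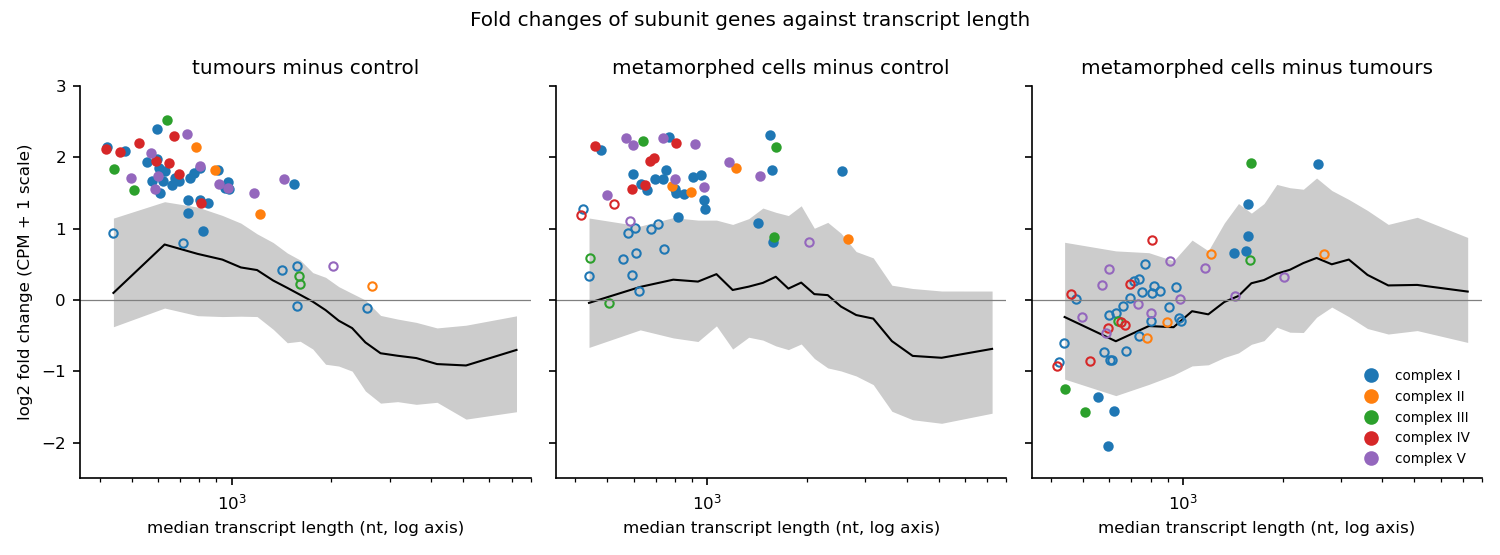
Log2 fold change of the 60 tested subunits (points coloured by complex, filled where the adjusted p passed 0.05) against median transcript length (log axis, nt) in the 3 comparisons, with the median (line) and quartiles (grey) of other genes in bins of length. In both comparisons with control nearly all subunits lie above the median of other genes of their length, and between metamorphed cells and tumours the called subunits are at both ends of the length range.

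Levels of different genes were compared per kilobase of transcript. Complex V had the highest median in metamorphed cells (931 CPM per kb, over 11 subunits) and in control (238 CPM per kb), and complex IV in tumours (828 CPM per kb, beside 789 for complex V). The order in tumours rested on the second 14-week tumour: without it complex IV had 497 and complex V 645 CPM per kb. For complex I the medians were 175, 234 and 61.7 CPM per kb in metamorphed cells, tumours and control. ATPsynC led in every group, with 2278 ± 551 CPM per kb in metamorphed cells (SD, n = 3), 2406 ± 1381 in tumours (SD, n = 6) and 687 ± 201 in control (SD, n = 3). In tumours the next places, those of UQCR-11 (1502 ± 1588), ATPsynD (1385 ± 958) and UQCR-Q (1350 ± 1357), did not differ beyond their spread. Without the second 14-week tumour these were 861 ± 266, 1011 ± 320 and 801 ± 198 CPM per kb for UQCR-11, ATPsynD and UQCR-Q (SD, n = 5), an alternative chosen after seeing the data. The order at the lower end also changed: ND-75 was the last of 60 subunits in control (31.6 ± 6.2) and in tumours (30.9 ± 11.4), and ND-B17.2 in metamorphed cells (65.4 ± 17.1).

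**Figure D5:**
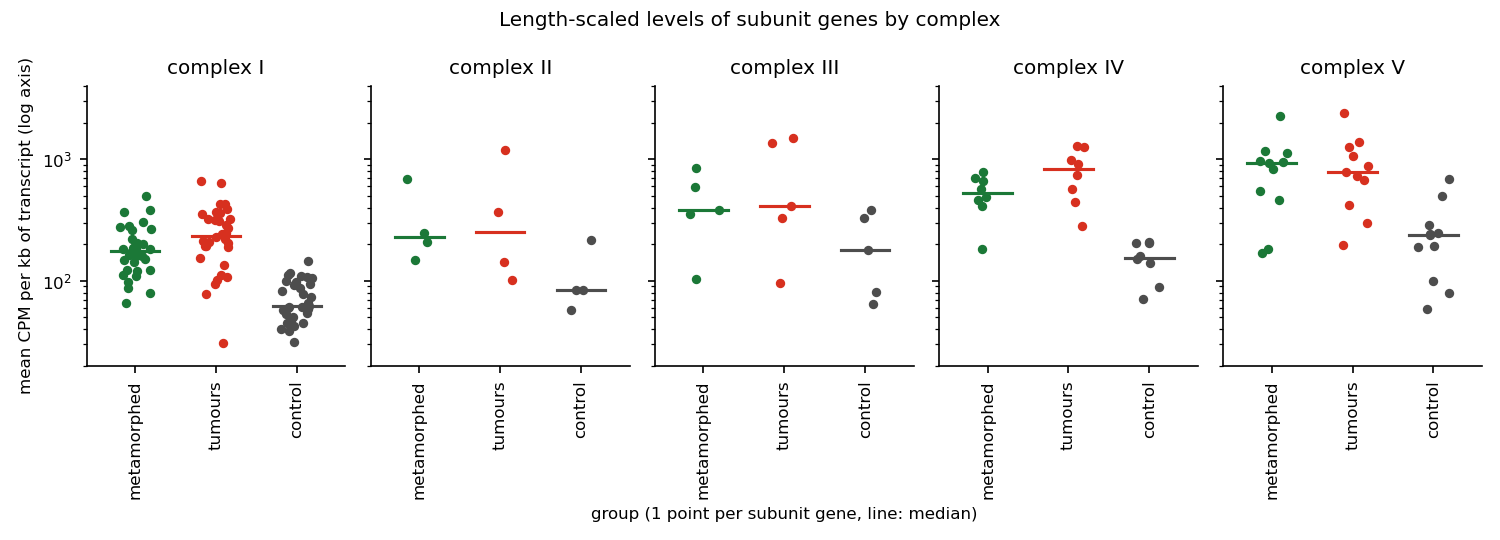
Mean CPM per kilobase of transcript (log axis) of each tested subunit, by complex and group, with a line at the median of the subunits. Complex V has the highest median in metamorphed cells and control, complex IV has it in tumours only while the second 14-week tumour is included (497 against 645 CPM per kb for complex V without it), and ATPsynC is the highest point in all 3 groups.

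Other genes of the pathway were read from further lists, to be set beside the shares over all genes given above (14.4% rose and 21.6% fell in tumours, 21.6% rose and 19.0% fell in metamorphed cells, and 28.5% were higher and 18.0% lower in metamorphed cells relative to tumours). Some subunits of the complexes carry names the rule does not catch, and 7 such genes were tested. Of these, 6 rose in tumours and 7 in metamorphed cells, while 3 exceeded tumours in metamorphed cells. The highest in both was ox, a subunit of complex III (log2 fold change 2.49 in tumours and 2.55 in metamorphed cells), and the lowest blw, which encodes the alpha subunit of ATP synthase. With 2180 CPM on average in metamorphed cells, 903 in tumours and 699 in control, blw did not pass in tumours (0.43, adjusted p = 0.270, but 0.86 ± 0.26 and adjusted p = 0.0206 with the length trend removed) and rose in metamorphed cells (1.72, adjusted p = 0.00106), where it was also the highest of the 7 against tumours (1.29, adjusted p = 0.00234). Between metamorphed cells and tumours, cype, a subunit of complex IV, had the lowest value (-0.27, adjusted p = 0.618). Among 7 further assembly factors, 5 rose in tumours and 3 in metamorphed cells. Sirup, a complex II assembly factor, was the highest (2.09 and 2.45) and Surf1, of complex IV, the lowest (0.29 and 0.12, neither passed). Scox, which delivers copper to complex IV, was lower in metamorphed cells than in tumours (log2 fold change -1.25, adjusted p = 0.00315).

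Enzymes of the citric acid cycle and of pyruvate entry were examined in the same way. Of 16 tested, 4 rose in tumours and 14 in metamorphed cells, 12 were higher in metamorphed cells relative to tumours, and 0 were lower in any of the 3 comparisons. With the length trend removed 7 rose in tumours and 14 in metamorphed cells, and 9 were higher in metamorphed cells relative to tumours. Idh3a, of the mitochondrial isocitrate dehydrogenase, was the highest in tumours (1.32, adjusted p = 0.000874) and Idh, which uses NADP, the lowest (-0.17, adjusted p = 0.684). PCB, the pyruvate carboxylase, was the highest in metamorphed cells (3.05 against tumours, with 136 CPM on average, 16.8 in tumours and 21.4 in control), and ScsbetaG, of succinyl-CoA synthetase, the lowest (0.10 and -0.35, neither passed). Of 4 other enzymes that feed electrons into the chain, 2 rose in tumours and 2 in metamorphed cells. Gpo1, the mitochondrial glycerol-3-phosphate dehydrogenase, had 220 CPM on average in metamorphed cells, 15.2 in tumours and 10.7 in control. Dhod, which makes pyrimidines, was the highest in tumours (1.22, adjusted p = 0.00103) and was lower in metamorphed cells than in tumours (log2 fold change -1.13, adjusted p = 0.000944), while Etfb, of the electron transfer flavoprotein, was the lowest in tumours (0.46, adjusted p = 0.389).

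Of 6 carriers and channels, 1 rose in tumours, near the share over all genes, namely porin (0.90, adjusted p = 0.0180), and 4 rose in metamorphed cells, led by the phosphate carrier Mpcp1 (2.43, adjusted p = 0.0130). Mpcp1 was the lowest in tumours (-0.36, adjusted p = 0.688) and Ant2, an adenine nucleotide translocator, in metamorphed cells (-0.66, adjusted p = 0.500). Of 9 regulators of mitochondrial gene expression and DNA, 2 rose in tumours (TFAM and mtSSB) and 0 in metamorphed cells, where 2 fell against control, near the share over all genes, and 6 were lower relative to tumours. mtSSB, which binds single-stranded mitochondrial DNA, was the highest in tumours (1.94, adjusted p = 0.0129) and was lower in metamorphed cells than in tumours (log2 fold change -2.81, adjusted p = 0.000706). The genes that fell in metamorphed cells against control were the fly relative of PGC-1, srl (16.6 CPM in metamorphed cells, 55.2 in tumours and 73.4 in control on average), and ewg, the fly relative of NRF-1, which was also the lowest in tumours (-0.35, adjusted p = 0.496). PolrMT was the highest against tumours (0.06, adjusted p = 0.921) and mtTFB2 against control in metamorphed cells (0.18, adjusted p = 0.818).

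Markers of other cell types differed between the groups in different directions, and the sums of fat body and haemocyte markers were higher in metamorphed cells than in all other samples. The summed CPM of 10 fat body markers was 2165 to 10247 in metamorphed cells, 14.2 to 46.4 in tumours and 171 to 1010 in control, and 9 of the 10 were higher in metamorphed cells relative to tumours. Fbp1 was the highest (log2 fold change 8.79) and Mtp the lowest (1.00, adjusted p = 0.0546), and Yp2 fell most in tumours against control (-5.19). For 16 muscle markers the sums were 330 to 2132 CPM in metamorphed cells, 264 to 1166 in tumours and 223 to 310 in control. Against tumours 12 of 15 tested were higher in metamorphed cells, led by Mlc1 (6.36). In tumours 5 muscle markers fell, bt most (-3.63), and 1 rose, Mlc2 (358 CPM on average, against 14.5 in control), while Mlc1, fln and Prm had no read in any tumour. For 6 haemocyte markers the sums were 75.2 to 160 CPM in metamorphed cells, 0.0 to 14.5 in tumours and 6.3 to 32.1 in control, with PPO2 the highest (4.57 against tumours) and He the lowest (0.79, adjusted p = 0.0924). Eye disc markers fell in tumours (9 of 10, led by eya, with 0.348 CPM on average in tumours and 444 in control) and in metamorphed cells (8 of 10), and Optix rose in tumours. Sums of 8 neuron markers were 65.0 to 121 CPM in metamorphed cells, 33.8 to 72.4 in tumours and 220 to 463 in control, and 6 of them fell in tumours, Syt1 most (-5.42). Sums of 4 glial markers overlapped between the groups, with 949 to 1362 CPM in metamorphed cells, 256 to 1402 in tumours and 807 to 1412 in control. Of these 4 glial markers 3 fell in tumours (moody most, -3.96) and 2 in metamorphed cells (wrapper most, -3.50). Sums of 8 germline markers were low, with 4.2 to 8.1 CPM in metamorphed cells, 0.0 to 0.068 in tumours and 0.096 to 17.7 in control. The highest germline sum of all samples was thus that of a control. Of 2 tested germline markers betaTub85D rose in metamorphed cells. The other extremes of these lists were, against control, sls (-1.23) and Prm (4.22) of muscle, brp (-2.73) and VGlut (1.46) of neurons and ey (-5.51) of the eye disc in metamorphed cells, and NimC1 of haemocytes in tumours (-1.84). Against tumours, nSyb (3.42), moody (4.38) and toy (3.57) were the highest of the neuron, glia and eye disc lists in metamorphed cells. The part of these cell types in the levels of the respiratory chain genes was not tested.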

How the data were processed

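The authors aligned reads with TopHat2 2.0.12 and Bowtie2 2.2.3 to dm6 and deposited log2 CPM made with edgeR 3.16.5, scaled for library size. The read counter and gene annotation are not given in the sources used here. Linear CPM had been assumed in planning. The values proved to be log2 CPM with a prior of 2.0 reads on average, whose subtraction gave whole reads for 100.0% of values (tolerance 0.05) and linear CPM. Read totals per sample were 2072498 to 81447816, and 3 reads were worth 0.042 to 1.18 CPM.

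The 10177 genes that reached 1 CPM in 2 or more samples entered one linear model of the 5 groups, fitted to log2(CPM + 1) by limma 3.58.1 (R 4.3.3) with a mean-variance trend, two-sided, with Benjamini-Hochberg adjustment. Tumours stand for the average over the 3 ages, each weighted equally. Python 3.11.15 with pandas 2.3.3 and matplotlib 3.10.9 made the tables and plots. Transcript lengths are medians over the transcripts of a gene in Ensembl's BDGP6 annotation (dm6 coordinates), and length trends were removed by lowess (span 0.3).

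Members and gene lists were chosen with earlier results of these data known. By rule, the text names in each complex the subunits with the highest and the lowest fold change of each comparison, all of complex II, tested paralogs and assembly factors, and the highest and lowest of each further list. Other genes are named because they were called between metamorphed cells and tumours, or were chosen after their values were seen (ND-20, ATPsynC, COX7C, UQCR-C1). Some list members were not analysed here, among them Cyt-c-p, muc, Fum1 and wupA. Alternatives covered pseudocount, filter, scaling, replicate block, samples in the fit, trend, threshold, length and each sample in turn.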

Additional observations from a re-analysis of the deposited data

Results flagged for a closer look

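In 4 of the 65 members tested the second 14-week tumour lay far from the other 5 tumours on the log2 scale, with a gap to the next tumour, relative to the whole range, above Dixon's 95% critical value for 6 samples. These were ND-AGGG, with 1128 CPM in this tumour, ND-B12, with 891 CPM, ND-B15, with 402 CPM, and UQCR-Q, with 2620 CPM. For a single group chance gives such a gap in about 1 of 20 cases. The 65 members share the same 6 tumours and are not independent, so the number due by chance cannot be told from this. All 4 gaps lay at the same tumour, and their cause was not tested. Tumours of 3 ages were taken as one group for this purpose, since each age holds 2 samples.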

How the results depend on the processing

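The rise of the members in tumours kept its count within 1.5 times under every setting tried. In metamorphed cells against control the median was 1.04 with CPM of total reads and 1.09 after quantile normalization. The first is a scaling that moved the median of all genes to -0.46 there and to -0.43 in tumours. limma-voom called 1 member lower. Against tumours, the higher members numbered 3 with quantile normalization, 4 with total reads and 15 with the length trend removed, and the lower ones 10 with quantile normalization, 10 with total reads, 3 with only the groups compared and 3 at a threshold of 0.01. At 4 weeks 11 members were higher at 0.01 and 29 with limma-voom. At 8 weeks it was 1 without the filter, 3 with median-of-ratios scaling, 13 with quantile normalization, 11 with only the groups compared, 1 without the mean-variance trend, 1 at 0.01, 9 with the length trend removed and 1 with limma-voom. At 14 weeks it was 3 with only the groups compared. The cause was not tested.

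With each of the 12 samples left out in turn, 43 to 53 members were higher in tumours (median 1.34 to 1.95) and 32 to 52 in metamorphed cells (median 1.36 to 1.74, lowest without the metamorphed sample number 3), and against tumours 5 to 11 were higher and 3 to 21 lower (median -0.35 to 0.16). At 4, 8 and 14 weeks the counts were 4 to 50, 0 to 26 and 22 to 54. Of single genes named, 688 of the values tried kept direction and side of the threshold, 26 lost it, 21 gained it and 15 changed sign, none of these past the threshold before or after. In tumours against control these were SdhA (-0.021 with quantile normalization, -0.12 with total reads), ATPsynbeta (-0.11 with quantile normalization), UQCR-C2 (-0.10 with total reads) and ND-75 (0.49 with the length trend removed, -0.22 to 0.046 with 1 sample left out). In metamorphed cells against control they were ATPsynbeta (-0.18 with quantile normalization), ND-B17.2 (-0.17 with the length trend removed, -0.020 with limma-voom, -0.38 with total reads, -0.079 to 0.27 with 1 sample left out) and UQCR-11 (-0.25 to 0.19 with 1 sample left out). Replicate numbers did not pair the samples: the mean correlation of deviations was -0.017 between same-numbered samples and 0.01 between others. With a replicate block, 47 members were higher in tumours and 42 in metamorphed cells, and 5 were higher and 5 lower between these. edgeR on recovered reads was not run, as the deposited unit is log2, and limma-voom and total reads were chosen after seeing the data.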
